A study of Mus musculus with 6 samples.

Results

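Transcripts of 9 genes of the activin system were followed in sorted stromal cells of the inflamed mouse colon: the activin subunit genes *Inhba* and *Inhbb*, the follistatin family genes *Fst*, *Fstl1* and *Fstl3*, the type I receptor genes *Acvr1* and *Acvr1b*, and the type II receptor genes *Acvr2a* and *Acvr2b*. They were taken by gene symbol from the 20327 symbols counted in each library, and all 9 were found. The cells came from C57BL/6 mice that carried the *Il11-Egfp* reporter, a bacterial artificial chromosome transgene with *Egfp* inserted into *Il11*, so that EGFP marks cells in which the *Il11* promoter of the transgene is active. According to the methods the mice were male. At 9 to 15 weeks of age they drank 1.5% dextran sulfate sodium (DSS), which damages the colonic epithelium, for 5 days, and the colon was taken on day 7. Cells without Ter119, CD45, CD31 and EpCAM on their surface were sorted into EGFP- and EGFP+ cells, and polyA RNA of each was sequenced by 5′Tag-seq, which counts tags from the 5′ side of transcripts (n = 3 libraries per group). Both groups therefore share the strain, the sex, the transgene, the DSS treatment and the day, and differ in EGFP. No untreated colon was part of the comparison.

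Activins are dimers of β subunits, the products of *Inhba* and *Inhbb*, and belong to the TGF-β superfamily. A dimer binds a type II receptor (the products of *Acvr2a* and *Acvr2b*), which phosphorylates a type I receptor such as the product of *Acvr1b*, and the signal passes to SMAD transcription factors. Follistatin (*Fst*) and follistatin-like 3 (*Fstl3*) bind activins outside the cell and block access to the receptors. Activin A, the homodimer encoded by *Inhba*, is known from inflamed tissue, wound repair and fibrosis.

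The libraries held 1057170, 1078179 and 1169817 tags in EGFP- replicates 1, 2 and 3 and 1046538, 1022851 and 1049048 tags in EGFP+ replicates 1, 2 and 3. At this depth 3 tags, taken as the floor, correspond to 2.56 to 2.93 CPM (tags per 1000000 tags of the library). Since the cDNA was amplified by PCR, such floors and the intervals of tag ratios cover only the error of counting. *Il11* itself, which checks the labels of the sort, had 28, 51 and 89 tags in the EGFP- libraries and 1357, 732 and 2658 tags in the EGFP+ libraries. Its log2 fold change was 4.98 (SE 0.393, Benjamini-Hochberg adjusted p = 1.01e-07 in edgeR's quasi-likelihood test), higher in 3 of 3 EGFP+ libraries than in any EGFP- library. In the reporter *Egfp* sits in exon 2 of *Il11*, so *Il11* tags from the 5′ side may also come from the reporter transcript. Tags of the reporter and of the mouse's own *Il11* were not told apart, and a rise may follow from sorting on EGFP. A log2 fold change is EGFP+ minus EGFP- throughout, and levels are CPM scaled by TMM (normalized CPM). Calls needed an adjusted p under 0.05 together with a fold change above 2, and of all 9334 genes tested 3.44% were called higher and 6.37% lower.

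The EGFP- fraction held more transcripts of smooth muscle, enteric glia and interstitial cells of Cajal. All 6 smooth muscle markers (*Myh11*, *Acta2*, *Tagln*, *Actg2*, *Des* and *Cnn1*) were called lower in EGFP+ cells, beside 6.37% of all genes tested. Their summed level was 2169, 2674 and 3396 normalized CPM in the EGFP- libraries and 81.6, 132 and 292.8 in the EGFP+ libraries. *Myh11*, the smooth muscle myosin heavy chain and the most abundant of them, had a log2 fold change of -4.55 (SE 0.368), and -5.63 without EGFP+ replicate 3. Of 6 pericyte markers 3 were called lower (*Rgs5*, *Notch3* and *Cspg4*) and 0 higher, beside 6.37% and 3.44% of all genes tested; DESeq2 likewise called 3 lower and 0 higher. The pericyte sum was 2628, 2228 and 2023 normalized CPM in EGFP- and 1068, 894.5 and 793.4 in EGFP+ libraries, led by *Rgs5* with a log2 fold change of -3.11 (SE 0.180). The list did not move as a whole: *Kcnj8* was at 0.71 (SE 0.227) and *Abcc9* at 0.66 (SE 0.182) with an adjusted p of 0.0394 and 0.0167 in edgeR's quasi-likelihood test after Benjamini-Hochberg correction, under a fold change of 2. Over 15 alternatives the adjusted p was not under 0.05 in 7 for *Kcnj8* and in 3 for *Abcc9*. *Pdgfrb* was at -0.38 (SE 0.179) and was not called.

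Markers of enteric glia and of interstitial cells of Cajal, the pacemaker cells of the gut wall, were likewise lower in EGFP+ cells. *Gfap*, the 1 of 3 glial markers that could be tested, was lower, and the sum of the 3 was 25.8, 33.0 and 28.7 against 1.06, 0 and 0.954 normalized CPM. *Kit* and *Ano1*, both markers of interstitial cells of Cajal, were lower too, with sums of 205.3, 119.7 and 217.6 against 1.06, 0 and 21.0 normalized CPM. The log2 fold change of *Ano1* was -4.59 (SE 0.479), and -7.69 without EGFP+ replicate 3, the library with 15 of the 16 *Ano1* tags of its group. The mesothelial sum, led by *Wt1*, was 12.4, 4.71 and 14.8 against 0, 0 and 1.91 normalized CPM, and none of its 3 genes passed the filter on low counts.

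Fibroblast transcripts were abundant in both groups. Of 8 fibroblast markers 2 were called higher in EGFP+ cells, beside 3.44% of all genes tested: *Col3a1* with a log2 fold change of 1.04 (SE 0.204) and *Pdpn* with 1.06 (SE 0.173). Both lie near the fold threshold. Without EGFP- replicate 1 they were at 0.85 and 0.96, *Pdpn* was at 0.96 without EGFP+ replicate 1, and with scaling by library size alone they were at 0.96 and 0.97, all under a fold change of 2. *Thy1* at 0.88 (SE 0.218) was not called, but was called without EGFP- replicate 3 (1.21) and, barely above the fold threshold, without EGFP+ replicate 2. By the adjusted p alone *Thy1* and *Dcn*, the latter at 0.67 (SE 0.220), were also higher. *Lum*, a small proteoglycan gene, was lower by this measure, at -0.64 (SE 0.201). In 7 of 15 alternatives for *Dcn*, in 4 for *Lum* and in 1 for *Thy1* the adjusted p was not under 0.05. The fibroblast sum, led by *Dcn*, which encodes the proteoglycan decorin, was 20920, 20750 and 23560 normalized CPM in EGFP- and 41070, 32860 and 29550 in EGFP+ libraries.

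Surface marker genes of the cell types that the sort removes were at or near 0, while some other transcripts of these types were counted. *Epcam* had 0 or 1 tag, *Pecam1* 0 or 1 tag and *Ptprc* 0 to 7 tags in any library. The epithelial sum was 30.6, 24.5 and 51.7 against 9.54, 11.2 and 21.0 normalized CPM and consisted mostly of *Lgals4*, the 1 epithelial marker tested. With a log2 fold change of -1.26 it was called lower, and the call was lost without EGFP- replicate 3 (-1.12), EGFP+ replicate 1 (-1.02) or EGFP+ replicate 2 (-1.16). The leukocyte sum was 21.0, 49.0 and 29.6 against 33.9, 13.2 and 21.9 normalized CPM. *Cd74*, the 1 leukocyte marker tested and the most abundant of them, was called lower at -1.50, but lost the call with DESeq2 (-1.53), without EGFP- replicates 1, 2 or 3 (-1.67, -1.13 and -1.65), and without EGFP+ replicates 1 or 2 (-1.14 and -1.34), while it kept it at -2.26 without EGFP+ replicate 3. Other leukocyte markers, too low to be tested, went the other way in some libraries: *S100a8* had 2, 4 and 2 tags in EGFP- and 13, 1 and 12 tags in EGFP+ libraries, and *S100a9* 1, 0 and 4 against 9, 4 and 0 tags. The endothelial sum, led by *Emcn*, was 11.5, 4.71 and 3.28 against 0, 1.02 and 1.91 normalized CPM. Hemoglobin transcripts, led by *Hbb-bs*, summed to 90.7, 0 and 304.6 normalized CPM in EGFP- and 18.0, 2.03 and 19.1 in EGFP+ libraries. Fewer cells of a type and less RNA per cell cannot be told apart in sorted bulk RNA, and the part of these cell types in the results on the activin genes was not tested. Mitochondrial transcripts made up 8.94%, 9.45% and 7.31% of tags in EGFP- and 5.04%, 4.67% and 4.43% in EGFP+ libraries, and ribosomal RNA 5.61%, 5.70% and 6.44% against 7.05%, 6.77% and 6.62%.

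**Figure D1:**
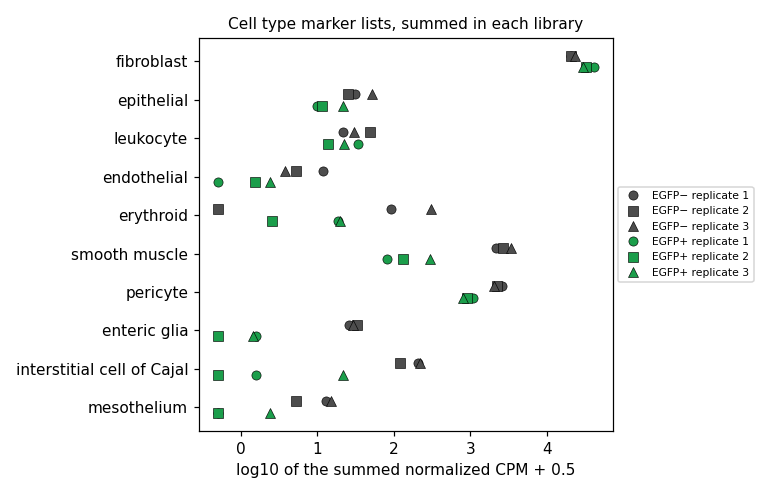
Summed level of each cell type marker list in each library, as log10 of normalized CPM + 0.5 (horizontal axis), for EGFP- (grey) and EGFP+ (green) libraries, with replicates 1, 2 and 3 as circles, squares and triangles. Smooth muscle, pericyte, enteric glia, interstitial cell of Cajal and epithelial lists sit lower in all 3 EGFP+ libraries. The endothelial and mesothelium lists do so too, at few tags, while the leukocyte and erythroid lists overlap between the groups. The fibroblast list is high in all 6 libraries.

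Among the 9 activin system genes, *Inhba* was the 1 called higher in EGFP+ cells, and none was called lower. The filter on low counts, 10 tags or more in 3 or more libraries, was passed by 8 of the 9 genes, *Acvr2b* being the exception. Over all 9334 genes tested, 321 (3.44%) were called higher and 595 (6.37%) lower by edgeR's quasi-likelihood test. By the adjusted p alone, *Inhba*, *Fstl1* and *Acvr1* were higher and none was lower, where 6.84% of all genes tested were higher and 8.7% lower. At an unadjusted p under 0.05, 5 of the 8 genes were higher and 1 lower, where 12.2% of all genes tested were higher and 14.5% lower. DESeq2 called 1 higher and 0 lower, where it called 3.04% of all genes tested higher and 5.17% lower. With the replicate number as a block, *Inhba* and *Inhbb* were called higher, where 3.61% of all genes tested were called higher and 6.94% lower. The median log2 fold change of the 8 genes was 0.62, beside -0.01 over all genes tested.

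*Inhba* encodes the βA subunit of activin A. It had 56, 68 and 139 tags in EGFP- replicates 1, 2 and 3 and 1245, 624 and 1209 tags in EGFP+ replicates 1, 2 and 3. The lowest EGFP+ library, replicate 2, thus lay well above the highest EGFP- library, replicate 3, and the groups did not overlap. In normalized CPM the mean was 77.2 ± 32.4 in EGFP- and 1035 ± 358 in EGFP+ cells (SD, n = 3). This is a 13.3-fold difference (95% confidence interval 8.71 to 20.3), or a log2 fold change of 3.73 (SE 0.290, Benjamini-Hochberg adjusted p = 8.31e-08 in edgeR's quasi-likelihood test). Without EGFP- replicate 3, the library with the most hemoglobin tags, it was 4.14, and with ribosomal RNA and mitochondrial genes left out of the fit 3.74. Counted from the highest log2 fold change in EGFP+ cells downward, *Inhba* ranked 15 of 9334 genes tested, and *Il11*, whose tags may include the reporter's, ranked 5. Within the groups, the *Inhba* and *Il11* levels were both lowest in replicate 1 and highest in replicate 3 among the EGFP- libraries, and both lowest in replicate 2 among the EGFP+ libraries. The EGFP+ library with the most *Inhba* was replicate 1, and that with the most *Il11* was replicate 3.

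*Inhbb*, which encodes the βB subunit of activin B, was counted far less often. It had 8, 0 and 20 tags in the EGFP- libraries and 23, 14 and 30 tags in the EGFP+ libraries. EGFP- replicate 3 reached above EGFP+ replicate 2, so the groups overlapped, and the 0 in EGFP- replicate 2 allows a level of up to 2.78 CPM. Mean levels in normalized CPM were 8.02 ± 8.22 and 22.4 ± 7.40 (SD, n = 3). The difference of 1.42 on the log2 scale (SE 0.551) did not pass the threshold (Benjamini-Hochberg adjusted p = 0.095 in edgeR's quasi-likelihood test). With the replicate number as a block it was 1.55 (SE 0.423, adjusted p = 0.00494 by the same test), which is a call: each EGFP+ library had more tags than the EGFP- library of its number. Without EGFP- replicate 3 it was 2.53 and also called (adjusted p = 0.0114 by the same test), and without EGFP- replicate 2 it was 0.88 and not called. Over 15 alternatives the adjusted p of *Inhbb* ranged from 0.00308 to 0.566.

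**Figure D2:**
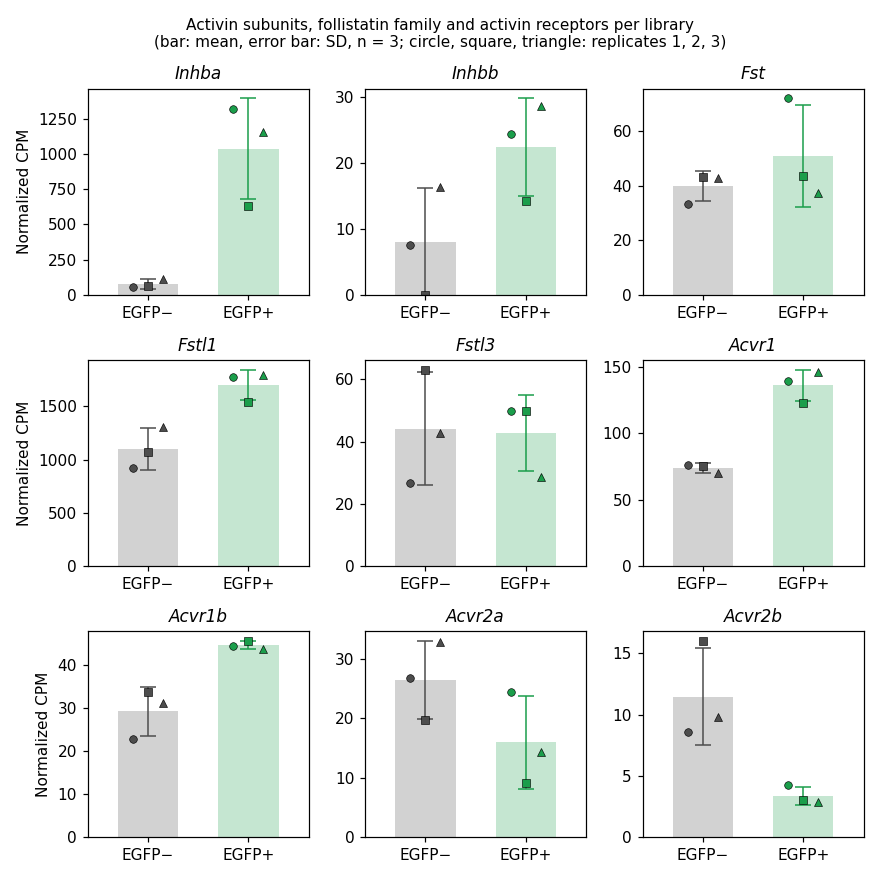
Normalized CPM (vertical axes, starting at 0) of the 9 genes in EGFP- (grey) and EGFP+ (green) libraries; bars are means, error bars SD (n = 3), and circles, squares and triangles are replicates 1, 2 and 3. *Inhba* rises from 77.2 to 1035 normalized CPM, *Fst* and *Fstl3* overlap between the groups, and *Acvr2b* stands at 11.5 and 3.38 normalized CPM.

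Follistatin, the main soluble antagonist of activin A, showed no such difference. *Fst* had 35, 46 and 52 tags in EGFP- and 68, 43 and 39 tags in EGFP+ libraries. EGFP+ replicate 1 was the highest of the 6 libraries, and by tags the other two EGFP+ libraries fell within the EGFP- range. Its log2 fold change was 0.35 (SE 0.257, Benjamini-Hochberg adjusted p = 0.437 in edgeR's quasi-likelihood test), and was 0.025 without EGFP+ replicate 1 and 0.53 without EGFP+ replicate 3. The 95% confidence interval with all 6 libraries runs from 0.874-fold to 1.85-fold, so a rise of the size of *Inhba* lies outside it.

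*Fstl3*, the other activin antagonist among the 9 genes, had 28, 67 and 52 tags in EGFP- and 47, 49 and 30 tags in EGFP+ libraries. The extremes of both groups overlapped almost entirely, with the lowest and the highest library both in the EGFP- group. On the log2 scale the change was -0.05 (SE 0.293, 95% confidence interval -0.67 to 0.56), and its sign changed without EGFP- replicate 2 (0.29) and without EGFP+ replicate 3 (0.17).

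*Fstl1*, a secreted glycoprotein gene that shares the follistatin domain but is related to SPARC, was the most abundant of the 9 genes. It had 960, 1141 and 1595 tags in EGFP- and 1674, 1518 and 1882 tags in EGFP+ libraries. By tags EGFP- replicate 3 exceeded EGFP+ replicate 2, but scaled to normalized CPM the EGFP- libraries were at 916.6, 1075 and 1310 and the EGFP+ libraries at 1774, 1541 and 1795, without overlap. The log2 fold change of 0.63 (SE 0.177) had a Benjamini-Hochberg adjusted p of 0.0193 in edgeR's quasi-likelihood test and stayed under a fold change of 2. The adjusted p rose to 0.121 without EGFP- replicate 1 and to 0.0962 without EGFP- replicate 2, and was 0.000291 to 0.121 over 15 alternatives. Of the 50-nt windows in the first 300 nt of its annotated transcripts, 3.81% also occur in transcripts of *Gm10033*, *Gm42900* or *Ppp2r5a*, so some *Fstl1* tags may be shared. No such window of the other 8 genes occurred in another gene.

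Both type I receptor genes had higher values in EGFP+ cells, by less than a fold change of 2. *Acvr1* encodes ALK2, a type I receptor that carries bone morphogenetic protein signals and can also bind activin A. It had 80, 80 and 85 tags in EGFP- and 131, 121 and 153 tags in EGFP+ libraries, which is a narrow spread in each group and a clear gap between them. In normalized CPM the means were 73.9 ± 3.55 and 135.9 ± 11.8 (SD, n = 3), a 1.84-fold difference (95% confidence interval 1.44 to 2.35). This amounts to 0.88 on the log2 scale (SE 0.169, Benjamini-Hochberg adjusted p = 0.00116 in edgeR's quasi-likelihood test), and the adjusted p stayed between 5.82e-05 and 0.00772 over 15 alternatives.

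*Acvr1b* encodes ALK4, the type I receptor through which activins A and B signal to SMAD2 and SMAD3. It had 24, 36 and 38 tags in EGFP- and 42, 45 and 46 tags in EGFP+ libraries, with each EGFP+ library above each EGFP- library. Its log2 fold change was 0.60 (SE 0.238, Benjamini-Hochberg adjusted p = 0.103 in edgeR's quasi-likelihood test), which misses the threshold. Of the 8 genes tested, the normalized CPM of 4 (*Inhba*, *Fstl1*, *Acvr1* and *Acvr1b*) did not overlap between the groups with EGFP+ above, where 14.5% of all genes tested did so, and 0 did not overlap with EGFP+ below, where 16.7% of all genes tested did so.

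The type II receptor genes had lower values in EGFP+ cells and few tags. *Acvr2a* had 28, 21 and 40 tags in EGFP- and 23, 9 and 15 tags in EGFP+ libraries. EGFP+ replicate 1 lay above EGFP- replicate 2, so the groups overlapped. On the log2 scale it changed by -0.74 (SE 0.348, Benjamini-Hochberg adjusted p = 0.178 in edgeR's quasi-likelihood test), and was not called with any library left out, where it ran from -1.16 without EGFP+ replicate 1 to -0.46 without EGFP+ replicate 2.

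*Acvr2b* had 9, 17 and 12 tags in EGFP- and 4, 3 and 3 tags in EGFP+ libraries. All 3 EGFP+ libraries were at or just above the floor of 3 tags and below every EGFP- library, but only 2 libraries reached 10 tags, so the gene was left out by the filter. Pooled over libraries, 38 tags stood against 10, a ratio of EGFP- to EGFP+ of 3.40 after scaling (95% exact Clopper-Pearson interval 1.66 to 7.65, counting error only). When all genes with at least 1 tag were fitted (20327 genes), its log2 fold change was -1.69 (SE 0.564, Benjamini-Hochberg adjusted p = 0.0333 in edgeR's quasi-likelihood test). The adjusted p of that fit cannot be set beside those of the filtered fit, since it gave *Inhba* an adjusted p of 4.7e-72 by the same test at a log2 fold change of 3.77.

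By mean level *Fstl1*, *Inhba* and *Acvr1* were, in this order, the 3 highest of the 9 genes in both groups. Each mRNA yields its tag from the 5′ side, so levels are not divided by transcript length, but the yield of tags may still differ between genes. Spread here is the SD over libraries, which ignores that the genes were counted in the same libraries. In EGFP- cells *Inhba* (77.2 ± 32.4) did not differ beyond the spread from *Acvr1* (73.9 ± 3.55) or *Fstl3* (44.2 ± 18.2) in normalized CPM (SD, n = 3). Nor did it differ beyond the spread from *Fst* (39.8 ± 5.55). Within each EGFP- library, however, *Inhba* lay above *Fstl3* and above *Fst*. In EGFP+ cells *Inhba* (1035 ± 358) lay far above *Acvr1* (135.9 ± 11.8) and below *Fstl1* (1703 ± 141). *Fstl3* and *Fst* in EGFP- cells, at 44.2 ± 18.2 and 39.8 ± 5.55, and *Fst*, *Acvr1b* and *Fstl3* in EGFP+ cells, at 51.0 ± 18.6, 44.7 ± 0.923 and 42.7 ± 12.2, did not differ beyond their spread. Further down in EGFP- cells, *Acvr1b* and *Acvr2a* (29.4 ± 5.73 and 26.5 ± 6.53) did not differ beyond their spread from each other or from *Fstl3*. By SD *Acvr1b* did not differ from *Fst* either, but within each EGFP- library it lay below *Fst* and below *Fstl3*. *Fst* was at 33.4, 43.3 and 42.7 and *Acvr1b* at 22.9, 33.9 and 31.2 normalized CPM in the EGFP- libraries. *Acvr2b* and *Inhbb* in EGFP- cells (11.5 ± 3.97 and 8.02 ± 8.22) did not differ beyond their spread. Nor did *Inhbb* and *Acvr2a* in EGFP+ cells (22.4 ± 7.40 and 15.9 ± 7.75). *Acvr2b* was the lowest of the 9 genes in EGFP+ cells, at 3.38 ± 0.748 normalized CPM.

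The balance of ligand and antagonist transcripts was compared within each library, which needs no scaling between libraries. The ratio of *Inhba* to *Fst* tags, with 0.5 added to each count, was 1.59, 1.47 and 2.66 in EGFP- replicates 1, 2 and 3. It was 18.2, 14.4 and 30.6 in EGFP+ replicates 1, 2 and 3, so every EGFP+ library exceeded every EGFP- library. On the log2 scale the mean was 0.88 ± 0.463 in EGFP- and 4.32 ± 0.559 in EGFP+ libraries (SD, n = 3), a difference of 3.44. A two-sided exact permutation test gave p = 0.1, the smallest p that 3 libraries against 3 allow.

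The ratio of *Inhba* to *Fstl3* tags followed the same course. It was 1.98, 1.01 and 2.66 in the EGFP- libraries and 26.2, 12.6 and 39.7 in the EGFP+ libraries. The means of the log2 ratio were 0.81 ± 0.712 and 4.56 ± 0.837 (SD, n = 3), a difference of 3.75, with p = 0.1 in the two-sided exact permutation test, again the smallest it can give. With same-numbered libraries paired, the differences were 3.51, 3.28 and 3.53 for *Fst* and 3.73, 3.64 and 3.90 for *Fstl3*. The exact sign-flip permutation test gave p = 0.25 for each ratio, the smallest that 3 pairs allow.

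Other genes of the pathway were followed in 6 lists with 47 genes counted in the libraries, of which 32 passed the filter. By edgeR's quasi-likelihood test 1 was called higher and 3 lower, beside 3.44% and 6.37% of all genes tested, so these counts are near the shares over all genes. The median log2 fold change of the 32 was 0.01. *Inhbc*, *Inhbe*, *Nodal*, *Amhr2*, *Cfc1*, *Fstl5*, *Wfikkn1*, *Cer1*, *Spock1* and, among markers, *Cdh1* and *Cdh5* were not analysed here.

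Of other ligands of the activin type II receptors, a list without the bone morphogenetic proteins, 5 genes were counted, and *Gdf11* alone passed the filter, with 29, 25 and 33 tags in EGFP- and 17, 23 and 28 tags in EGFP+ libraries and a log2 fold change of -0.20 (SE 0.279), and 0 were called by edgeR (0 at an unadjusted p under 0.05, 0 by DESeq2). *Inha*, whose product pairs with β subunits to form inhibins, had 8, 3 and 11 tags in EGFP- and 3, 1 and 3 tags in EGFP+ libraries. *Gdf1* had 8, 1 and 0 against 1, 0 and 0 tags, *Mstn*, which encodes myostatin, had 2 tags in all, and *Gdf3* had 1. Of 7 other extracellular binders of this family of ligands, the one tested was *Chrd*, encoding chordin, with 16, 16 and 15 against 6, 8 and 8 tags. On the log2 scale *Chrd* was at -0.93 (SE 0.389) and was not called (Benjamini-Hochberg adjusted p = 0.125 in edgeR's quasi-likelihood test). That list had 0 calls by edgeR, 1 gene lower at an unadjusted p under 0.05 (14.5% of all genes tested), and 0 calls by DESeq2.

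Among the other receptors and co-receptors of the superfamily, 8 of 11 genes were tested and 0 were called by edgeR, with 2 higher and 0 lower at an unadjusted p under 0.05 (12.2% and 14.5% of all genes tested) and 0 calls by DESeq2. Their log2 fold changes ran from -0.48 to 0.88 with a median of 0.15. *Tgfbr1*, the type I receptor of TGF-β, was at the upper end with 133, 136 and 119 tags in EGFP- and 212, 193 and 237 tags in EGFP+ libraries. Its log2 fold change of 0.88 (SE 0.170, Benjamini-Hochberg adjusted p = 0.00127 in edgeR's quasi-likelihood test) was close to that of *Acvr1* and under a fold change of 2. *Tgfbr3*, the co-receptor betaglycan that also binds inhibin, had a log2 fold change of -0.21 (SE 0.160), *Tgfbr2* 0.03 (SE 0.221), and *Bmpr2*, a type II receptor of bone morphogenetic proteins, 0.26 (SE 0.179). *Acvr1c*, which encodes the type I receptor ALK7, had 0 or 1 tag in every library.

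Genes of the SMAD2/3 arm and its regulators were detected in both groups. Of 14 genes 13 were tested and 0 were called by edgeR, with 2 higher and 0 lower at an unadjusted p under 0.05 (12.2% and 14.5% of all genes tested) and 0 calls by DESeq2, and their log2 fold changes ran from -0.44 to 0.93 with a median of 0.18. *Pmepa1*, a TGF-β target whose product restrains the pathway, had 139, 173 and 200 tags in EGFP- and 283, 242 and 349 tags in EGFP+ libraries. The log2 fold change was 0.93 (SE 0.173, Benjamini-Hochberg adjusted p = 0.000859 in edgeR's quasi-likelihood test), just under the fold threshold. Without EGFP+ replicate 2 it was 1.05 and called higher. *Tgif1*, a SMAD corepressor gene, had 81, 54 and 61 against 106, 75 and 114 tags and a log2 fold change of 0.74 (SE 0.215, Benjamini-Hochberg adjusted p = 0.0238 in edgeR's quasi-likelihood test), under a fold change of 2, and its adjusted p was not under 0.05 in 5 of 15 alternatives. *Skil*, the most abundant gene of the list, which also encodes a SMAD corepressor, was at 0.18 (SE 0.160), and *Fkbp1a*, whose product binds type I receptors, at 0.25 (SE 0.175). *Ppm1a*, a SMAD phosphatase gene, was at 0.28 (SE 0.173).

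In the SPARC family, to which *Fstl1* is related by sequence, single genes were called in both directions. Of 5 genes tested 1 was higher and 2 were lower (3.44% and 6.37% of all genes tested). *Smoc1* had 31, 38 and 22 tags in EGFP- and 130, 111 and 56 tags in EGFP+ libraries, a log2 fold change of 1.87 (SE 0.308, Benjamini-Hochberg adjusted p = 0.000281 in edgeR's quasi-likelihood test). Its paralog *Smoc2* went the other way, with 67, 46 and 40 against 16, 22 and 9 tags and a log2 fold change of -1.54 (SE 0.334). *Spock2*, a testican gene, had 53, 44 and 36 against 7, 5 and 5 tags and a log2 fold change of -2.79 (SE 0.359). *Sparc* at 0.69 (SE 0.185) and *Sparcl1* at -0.82 (SE 0.165) stayed under a fold change of 2.

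Proprotein convertases cut the precursors of TGF-β family ligands, activins included. Of 4 genes, 1 was called lower by edgeR, where 6.37% of all genes tested were, and 0 by DESeq2, where 5.17% were. *Pcsk6*, encoding PACE4, had 13, 23 and 17 tags in EGFP- and 4, 4 and 8 tags in EGFP+ libraries, a log2 fold change of -1.55 (SE 0.439, Benjamini-Hochberg adjusted p = 0.0204 in edgeR's quasi-likelihood test). The call was lost with DESeq2 (-1.57) and without EGFP- replicate 2 (-1.28), EGFP+ replicate 1 (-1.41) or EGFP+ replicate 2 (-1.39), and the adjusted p ranged from 0.0128 to 0.12 over 15 alternatives. *Furin*, with 22, 24 and 28 against 30, 25 and 37 tags, had a log2 fold change of 0.47 (SE 0.268) and was not called. *Pcsk5*, the most abundant of the 4, was at -0.09 (SE 0.185) and *Pcsk7* at -0.13 (SE 0.231).

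**Figure D3:**
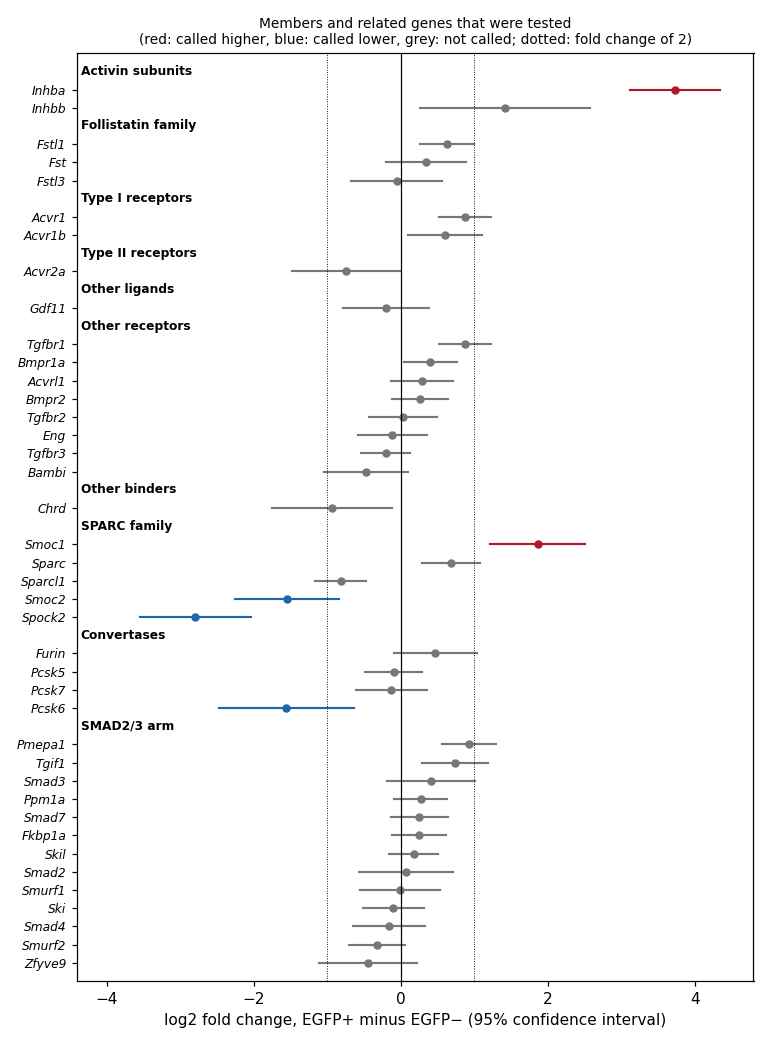
Log2 fold change (horizontal axis, EGFP+ minus EGFP-) with its 95% confidence interval for the 8 activin system genes tested and the 32 related genes tested, grouped by list; dotted lines mark a fold change of 2. *Inhba* at 3.73 and *Smoc1* at 1.87 were called higher (red), *Smoc2*, *Spock2* and *Pcsk6* were called lower (blue), and the other genes were not called (grey).

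The genes most like *Inhba* in their course over the 6 libraries were *Mmp3*, *Dio2* and *Csf3*, by the root mean square difference in log2 CPM after each gene was centred on its own mean. *Mmp3*, a matrix metalloproteinase gene, was nearest at 0.371, with 261, 197 and 339 tags in EGFP- and 3514, 1376 and 2507 tags in EGFP+ libraries. As for *Inhba*, EGFP+ replicate 1 was the highest and EGFP+ replicate 2 the lowest of its group. The choice of genes by their likeness favours such a shared order. *Dio2*, which encodes a deiodinase that activates thyroid hormone, followed at 0.504, with 18, 28 and 89 against 788, 247 and 283 tags. Its log2 fold change of 3.50 (SE 0.453) was 2.72 without EGFP+ replicate 1 and 4.36 without EGFP- replicate 3. *Csf3*, the gene of granulocyte colony-stimulating factor, was at 0.514, with 52, 44 and 70 against 721, 420 and 348 tags.

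The 9 genes lie apart in the genome. In GENCODE release M21 (GRCm38), *Inhba* spans chr13:16011851-16031621 on the plus strand and *Fst* chr13:114452290-114458951 on the minus strand of the same chromosome. *Acvr1* (chr2:58388644-58567157, minus strand) and *Acvr2a* (chr2:48814109-48903269, plus strand) share chromosome 2. *Inhbb* lies at chr1:119415465-119422248, *Fstl1* at chr16:37776873-37836514, *Fstl3* at chr10:79777272-79782630, *Acvr1b* at chr15:101174067-101213684 and *Acvr2b* at chr9:119402118-119434995. *Inhba* has 2 coding transcripts, with 3 and 5 exons. It overlaps 2 genes annotated on the other strand, *B230303A05Rik* and *Gm48444*. *Fst*, *Fstl3*, *Acvr1*, *Acvr2a* and *Acvr2b* each overlap 1 gene on the other strand, and *Acvr1b* overlaps *Mir6962* on the same strand. The authors mapped tags in one orientation.

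Since tags start near the 5′ end of transcripts, the bases before the annotated starts were read from a table of RefSeq promoters (GRCm38.p6), in which 8 of the 9 genes were matched; that of *Fst* was not analysed here. In the 250 bases before the start, *Inhba* stood apart from the other 7 genes in base composition. It had 43.2% G + C and 3 CG dinucleotides, while the other 7 genes had 68.0% to 85.6% G + C and 16 to 49 CG dinucleotides. Over 32841 RefSeq promoters of the same length the medians were 52.4% and 6, and 25.4% held more than 15 CG dinucleotides, a limit chosen after the values were seen. The letters TATAAA, searched on both strands, occurred in *Inhba* and *Fstl3* and in 12.4% of all promoters. GGGCGG occurred in the other 7 genes but not in *Inhba*, and in 32.7% of all promoters. TGANTCA and TGACGT were found in none of the 8 windows, and in 6.75% and 6.47% of all promoters, and CAGACA in *Fstl3* and 17.1% of all promoters. These are matches of letters only, and no match overlapped one of another motif searched.

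The sequences of *Inhba*, the gene with the large difference, and of *Acvr1*, the receptor gene with the smallest adjusted p, show this contrast. Each is printed 5′ to 3′ on the strand of the gene, up to the last base before the RefSeq start, with CG dinucleotides in capitals. The *Inhba* window is chr13:16011601-16011850 (plus strand) and ends directly before the GENCODE start of the gene. The *Acvr1* window is chr2:58566829-58567078 (minus strand), and its RefSeq start lies 329 bases inside the GENCODE gene.
Inhba: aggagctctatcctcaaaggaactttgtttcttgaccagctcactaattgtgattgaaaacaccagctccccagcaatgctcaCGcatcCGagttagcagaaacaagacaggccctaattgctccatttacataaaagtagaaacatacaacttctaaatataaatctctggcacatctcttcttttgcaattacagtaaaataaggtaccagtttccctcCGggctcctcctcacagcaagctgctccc
Acvr1: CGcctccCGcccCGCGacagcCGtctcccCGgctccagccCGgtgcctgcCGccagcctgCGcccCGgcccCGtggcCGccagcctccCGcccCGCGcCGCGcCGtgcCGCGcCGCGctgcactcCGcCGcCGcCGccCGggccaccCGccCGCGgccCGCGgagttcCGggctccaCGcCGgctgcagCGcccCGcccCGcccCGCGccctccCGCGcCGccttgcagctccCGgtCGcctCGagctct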

How the data were processed

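According to the methods and the labels, the authors sequenced polyA RNA of both sorted groups by 5′Tag-seq on an Ion Torrent instrument, trimmed reads with Cutadapt 1.18, and used Bowtie2 2.2.5 to map these to the RNA sequences of RefSeq mm10 in a single orientation. The deposited values are tag counts per gene symbol without normalization. How tags that map to several genes were treated is not given in the sources used here, nor are molecular identifiers. As printed, the methods exclude genes with 10 or more tags, which was read as keeping them.

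Genes reaching 10 tags in 3 or more of the 6 libraries were fitted in R 4.3.3 with edgeR 4.0.16 (TMM on the genes kept, glmQLFit, glmQLFTest), with Benjamini-Hochberg adjustment over all genes tested, and called where the adjusted p was below 0.05 and the change above 2-fold, the thresholds of the study. The methods name 3 mice, and the replicate numbers come from the labels. Same-numbered libraries deviated together from their group means (r = 0.23, 0.19 and 0.26 over 5063 genes averaging 30 tags or more; genes are not independent replicates), so values from a blocked fit (replicate number as the block) are printed where they change a call. Ratios of tags were compared by exact permutation tests. The fit was tested on simulated data with independent libraries and an equal spread for all genes, unlike the data here. That run is no check of single genes.

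The genes and lists were chosen with earlier results of these data known. Named are the 9 genes, *Il11*, every called gene of the lists and at most 4 others per list by mean tags, the 3 genes nearest to *Inhba* in log2 CPM (prior count 2), and the called and most abundant marker of each cell type. Surface markers of the sort and list genes with few tags or an adjusted p under the threshold were named after their values were seen. A further marker, left out of the lists, sums and counts, is not reported here.

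Alternatives were RLE, iterative TMM, scaling by library size, DESeq2 1.42.0, no filter, filterByExpr, the replicate block, thinned counts, each library left out, the adjusted p alone, a pseudocount of 1 for ratios and, added after seeing the data, leaving out ribosomal RNA and mitochondrial genes.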

Additional observations from a re-analysis of the deposited data

How the results depend on the processing

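The call of *Inhba* held under all 15 alternatives run for it, with log2 fold changes from 3.53 to 4.14. Of the 120 alternative values for the 8 activin system genes tested, 114 kept their sign and their side of the threshold. *Inhbb* passed the threshold with no filter on low genes (1.46) and with the replicate block (1.55), and ranged from 0.88 to 2.53 with each library left out. The sign of *Fstl3* changed with thinned counts (0.031) and within its leave-one-out range (-0.31 to 0.29). Activin system genes called higher numbered 2 without the filter, 2 with the replicate block, 3 by the adjusted p alone and 1 to 2 with each library left out, against 1. With no filter 1 was called lower, *Acvr2b*, against 0, but that fit also gave far smaller adjusted p for strongly changed genes at nearly the same fold changes, as for *Inhba* (3.77). By the adjusted p alone 638 genes were higher, against 321. The cause of these changes was not tested, except that *Acvr2b* can be called only where it is fitted, and that dropping the fold threshold adds genes by construction. The replicate block changed no other call among the 9 genes. For both ratios the mean of the paired differences equals the unpaired difference by arithmetic (3.44 and 3.75), so pairing is no check of it. This difference ranged from 3.13 to 3.71 for *Fst* and from 3.36 to 4.20 for *Fstl3* over the other alternatives.

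*Inhbb*, *Acvr2a* and *Acvr2b* rest on 95, 136 and 48 tags in all, and the 95% confidence intervals of the fold change are wide (1.20 to 5.97 for *Inhbb*, 0.360 to 0.992 for *Acvr2a*). Transcripts were measured, not activin protein.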
